A study of Homo sapiens with 6 samples.

Results

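The nuclear-encoded subunits of respiratory complexes I to IV were taken as 59 genes listed by symbol, and all 59 were found by Ensembl ID among the 60892 rows of the deposited count table. They comprised 36 NDUF genes of complex I, the 4 SDH genes of complex II, 9 genes of complex III (UQCR genes and CYC1) and 10 COX genes of complex IV. The rule picks genes by symbol and uses no measured value, but the list was chosen with earlier results of these data known. The list is not the full set of nuclear subunits of these complexes.

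The respiratory chain sits in the inner mitochondrial membrane and passes electrons from NADH (complex I) and succinate (complex II) through coenzyme Q, complex III and cytochrome c to oxygen at complex IV. Complexes I, III and IV pump protons, and the gradient drives ATP synthase. Subunits of complexes I, III and IV come from both genomes, with the mitochondrial genome supplying hydrophobic core subunits, whereas every subunit of complex II is nuclear. Nuclear subunits are either core, carrying flavin, iron-sulfur or haem centres or the enzyme's scaffold, or accessory proteins, many of them small.

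RNA came from BEAS-2B, an immortalised human bronchial epithelial line with genotype WT. Cells received medium (control, 3 libraries) or ZQ at 10 mg/mL (3 libraries) for 24 hours. ZQ is Zhenqi Granules, a herbal preparation. Methicillin-resistant Staphylococcus aureus (MRSA) was then added to both groups at 1 bacterium per cell, and cells were collected 2 hours later. No group lacked bacteria, so ZQ was compared with medium in infected cells only. The labels do not say whether the 3 libraries of a group were separate cultures, so a p-value weighs a difference against the spread of these libraries, and that spread may be only technical.

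Promoter windows are shown for the member with the smallest adjusted p in each complex, since NRF1 and GABPA are transcription factors known to drive many respiratory subunit genes and members of complexes III and IV rose while SDHD did not pass the test. Each window is the 250 bases before the RefSeq start site on GRCh38.p14, read 5′ to 3′ on the gene's strand, with capitals marking a motif match on either strand. UQCRH (chr1:46303448-46303697, plus strand) rose, COX6B1 (chr19:35648073-35648322, plus strand) rose, SDHD (chr11:112086623-112086872, plus strand) was not called, and NDUFS1 (chr2:206159210-206159459, minus strand, for 1 of its listed starts) fell. Where a gene had more than 1 listed start, the window with the most motif matches was shown. GENCODE lists an earlier start for each of these 4 genes.
UQCRH: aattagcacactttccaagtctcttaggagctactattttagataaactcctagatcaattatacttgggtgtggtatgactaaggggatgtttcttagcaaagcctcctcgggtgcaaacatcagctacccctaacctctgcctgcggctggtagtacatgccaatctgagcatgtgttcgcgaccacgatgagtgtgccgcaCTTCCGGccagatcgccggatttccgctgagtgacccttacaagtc
COX6B1: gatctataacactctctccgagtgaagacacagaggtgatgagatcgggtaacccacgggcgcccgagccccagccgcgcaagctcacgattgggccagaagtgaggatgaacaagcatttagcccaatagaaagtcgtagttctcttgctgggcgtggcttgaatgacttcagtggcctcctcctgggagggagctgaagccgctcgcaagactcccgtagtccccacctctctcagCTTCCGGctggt
SDHD: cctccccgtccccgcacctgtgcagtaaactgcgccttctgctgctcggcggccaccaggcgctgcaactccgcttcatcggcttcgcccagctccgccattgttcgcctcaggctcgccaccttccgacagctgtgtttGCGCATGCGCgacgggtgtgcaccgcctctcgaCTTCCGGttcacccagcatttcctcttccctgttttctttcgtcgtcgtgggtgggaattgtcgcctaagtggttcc
NDUFS1: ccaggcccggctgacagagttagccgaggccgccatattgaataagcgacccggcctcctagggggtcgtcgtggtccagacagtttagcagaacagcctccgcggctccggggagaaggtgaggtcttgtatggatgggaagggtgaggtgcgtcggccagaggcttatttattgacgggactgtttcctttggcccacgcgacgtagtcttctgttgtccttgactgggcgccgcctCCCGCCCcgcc

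The motifs searched were GCGCA, any base and GCGC in a row for NRF1, CCGGAAG for GABPA, AAGATGG for YY1 and GGGCGGG for Sp1. The capitals in UQCRH and COX6B1 are GABPA matches that begin at −46 and −12 relative to the start. SDHD held an NRF1 match at −110 and a GABPA match at −77. The NDUFS1 window held only an Sp1 match, at −11. Promoters were listed for 51 of the 59 genes. The NRF1 motif was in 10 of these 51 (19.61%), against 6.2% of 27305 genes with a listed promoter. The GABPA motif was in 14 of 51 (27.45%), against 10.24% of all genes. YY1 (3 of 51, against 4.49% of all genes) and Sp1 (16 of 51, against 35.28%) were closer to the share in all genes. Among genes that rose, 2 of 23 with a listed promoter held the NRF1 motif and 7 of 23 the GABPA motif, against 7 of 25 and 6 of 25 among genes not called. These matches are letters in a window and were not tested for binding or for a link to the change.

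Depth was 11665967 to 14699677 counts in the control group and 2064566 to 2451746 in the ZQ group, on average 5.95 times lower. Rows with at least 1 count numbered 19400 to 21141 in the deeper control libraries and 23836 to 24713 in the shallower ZQ libraries. The 389 olfactory receptor genes, used as a gauge of background reads, held 0.00529 to 0.0067 CPM per kilobase in control and 0.356 to 0.455 CPM per kilobase with ZQ. Libraries of the control group correlated with each other at 0.97 to 0.98 and those of the ZQ group at 0.80 to 0.81. Transcripts of the mitochondrial genome took 7.04% to 10.1% of control and 38.4% to 40.7% of ZQ counts. Levels below are CPM, read counts divided by library size after scaling by TMM factors, which take the bulk of genes as reference. In bulk RNA, fewer cells and less RNA per cell cannot be told apart. The 6 epithelial markers, mostly the keratins KRT8 and KRT18, summed to 1825 to 3286 CPM in control and 1703 to 1939 CPM with ZQ, while CDH1, an epithelial adhesion gene, was near 0, at a mean of 0.135 CPM in control and 1.76 CPM with ZQ. KRT8 fell 2.36-fold (adjusted p = 0.0021) while KRT7, another keratin, rose 3.06-fold (adjusted p = 0.000222). The 6 leukocyte markers summed to 0 to 0.745 CPM in control and 5.98 to 19.3 CPM with ZQ, none passed the count filter, and CD68 and LYZ were at 0. The 6 fibroblast markers, chiefly COL1A1, summed to 318 to 606 CPM in control and 105 to 135 CPM with ZQ. The part of depth, background reads, library spread, mitochondrial share or cell markers in the results below was not tested. Fits with controls thinned to the ZQ depth and without mitochondrial-genome genes are given among the alternatives.

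Most nuclear respiratory genes that changed were higher with ZQ. Of the 59, 57 passed the low-count filter, 26 rose and 3 fell at an adjusted p below 0.05 (edgeR quasi-likelihood test, adjusted over 12994 genes). Over all genes tested, 38.3% were called, 19.3% higher and 19.0% lower. The median log2 change was 0.63 over the 57 and 0.03 over all genes tested. Groups did not overlap in CPM for 35 genes higher and 5 genes lower with ZQ, where 53.5% of all tested genes did not overlap, 25.4% higher and 28.0% lower. The rises were moderate: 22 of the 26 stayed under a doubling, and they ran from 0.56 to 1.17 on the log2 scale. The 3 that fell were NDUFS1 and NDUFV1 of complex I and UQCRC1 of complex III. The 28 not called lay between −0.47 and 1.16 on the log2 scale, 18 of them positive.

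**Figure D1:**
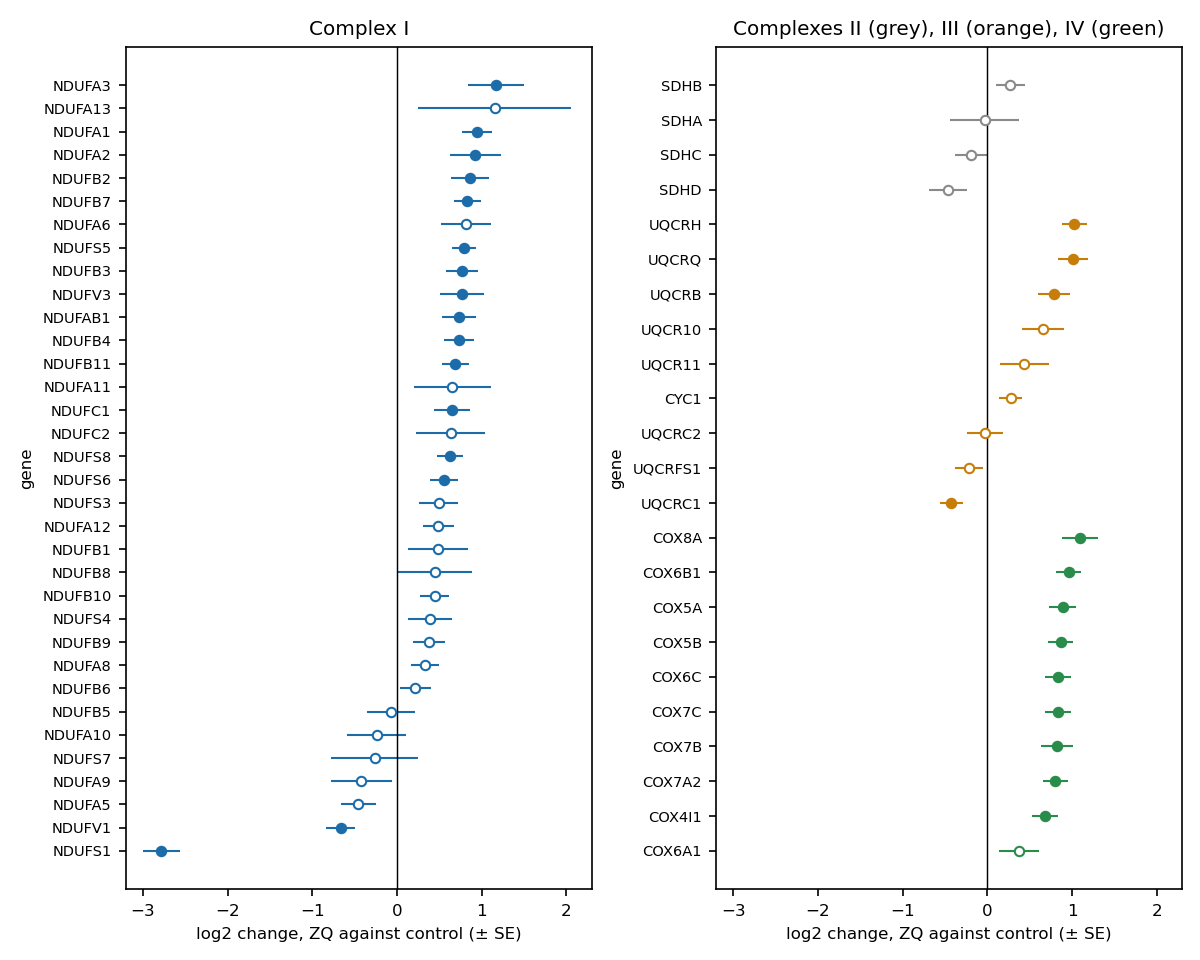
Fitted log2 change of the 57 tested genes, ZQ against control, with its standard error as a bar; filled points passed the adjusted threshold and open points did not, and genes are ordered by change within a complex. Complex IV genes lie together near 0.83, complex II genes lie around 0, and NDUFS1 stands alone at −2.78.

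**Figure D2:**
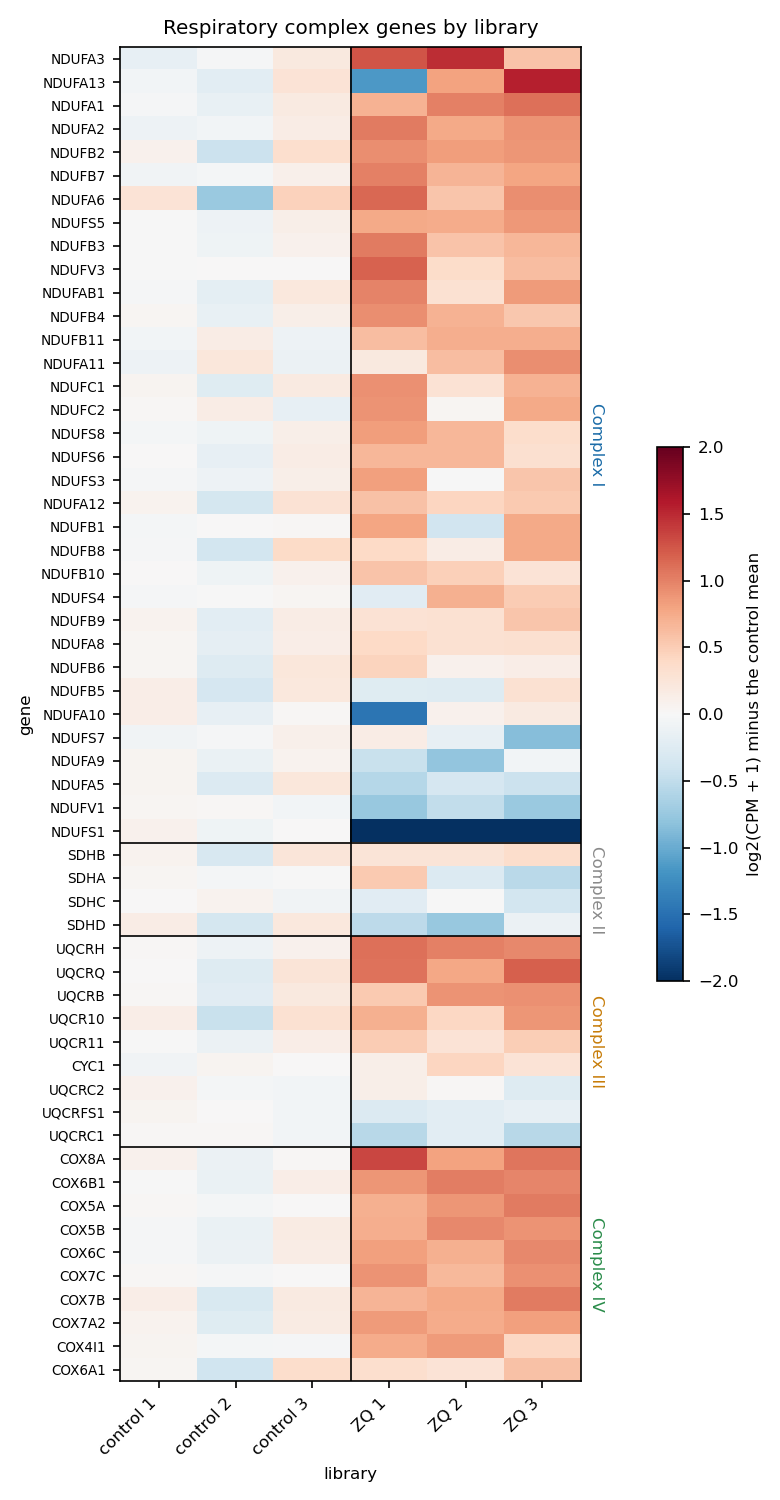
Level of each tested gene in each library as log2(CPM + 1) minus its control mean, by complex; the colour scale ends at 2 in either direction, and NDUFS1 lies beyond it in all 3 ZQ libraries. Most rows of complexes I, III and IV are red in the 3 ZQ libraries, and NDUFA13 and NDUFA10 differ among the ZQ libraries.

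The catalytic core of complex I held both of the complex I genes that fell. This core strips electrons from NADH and hands them along iron-sulfur clusters to coenzyme Q. Of its 6 listed genes 5 were tested, 2 fell, 1 rose, and the median log2 change was −0.26.

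NDUFS1 encodes the largest subunit, which holds iron-sulfur clusters next to the NADH site, and lies at chr2:206114817-206159603 (GRCh38). Its CPM was 155, 138 and 147 in control 1 to 3 and 21.7, 20.6 and 21.6 in ZQ 1 to 3. The groups were far apart, the 3 libraries of each group lying close together. The fitted change was −2.78 ± 0.22 (log2 ± SE), 6.89-fold lower (adjusted p = 1.67e-05). It was the largest change among the 57 and was called lower in all 18 alternatives, between −3.18 and −1.85. Its exons overlap those of EEF1B2, a translation elongation factor gene with 9557 counts in the control and 2646 in the ZQ libraries.

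NDUFV1 binds NADH and the flavin that first accepts its electrons. Its CPM was 164, 163 and 154 in control and 94.5, 113 and 95.6 in ZQ libraries, with no overlap, a change of −0.66 ± 0.17 (adjusted p = 0.0128). The call was lost when any single control library was left out (−0.49, −0.55 and −0.53 without control 1, 2 and 3), and with upper-quartile scaling (−0.22), the stricter count filter (−0.43) and thinned controls (−0.48). NDUFS8, which carries iron-sulfur clusters close to the coenzyme Q site, was the core gene that rose. It had 293, 282 and 327 CPM in control and 535, 478 and 384 CPM in ZQ libraries, a change of 0.63 ± 0.16 (adjusted p = 0.00962). It stood at −0.45, not called, when each library was corrected for GC content and transcript length. NDUFS3 and NDUFS7, both of the arm that passes electrons to coenzyme Q, were not called at 0.50 ± 0.23 and −0.26 ± 0.51.

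NDUFV2, a further iron-sulfur subunit of the NADH-oxidising arm, had 10, 5 and 15 counts in control and 0 in each ZQ library, which allows up to 1.44 to 1.66 CPM there (3 counts per library, counting error only). Its control level of 0.288 to 1.14 CPM was under that limit, so no difference was detectable at this depth. Its processed pseudogene NDUFV2P1 held 562 control and 79 ZQ counts, so reads of the gene may have been assigned to either row. NDUFA7 had 1, 3 and 1 counts in control and 0, 1 and 0 in ZQ libraries, and its exons overlap those of RPS28, with 3071 and 1252 counts. Neither gene was tested.

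Accessory genes of complex I rose in 13 of 29 tested, and 0 fell, with a median log2 change of 0.65. By gene series, 4 of 12 NDUFA (NDUFAB1 included), 5 of 11 NDUFB, 1 of 2 NDUFC, 3 of 7 NDUFS and 1 of 2 NDUFV genes rose, with the core gene NDUFS8 among the NDUFS. These proteins surround the core, and many are needed to build or hold the membrane arm.

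NDUFS5, which lies on the intermembrane-space face, had 192, 179 and 210 CPM in control and 329, 325 and 355 CPM in ZQ libraries, a change of 0.79 ± 0.14 (adjusted p = 0.00156). NDUFA1, a small membrane protein needed for assembly, had 133, 121 and 152 CPM in control and 219, 271 and 290 CPM in ZQ libraries, a change of 0.95 ± 0.17 (adjusted p = 0.00185). In both genes every ZQ library exceeded every control library. NDUFA1 was called in all 18 alternatives, and NDUFS5 in 17. The exons of NDUFA1 overlap RNF113A, whose counts were 1538 in control and 94 in ZQ libraries.

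Among genes of the membrane arm, NDUFB7, NDUFB11, NDUFB4 and NDUFB3 also rose without overlap. NDUFB7 had 133, 135 and 150 CPM in control and 279, 224 and 241 CPM in ZQ libraries, a change of 0.83 ± 0.16 (adjusted p = 0.00244). NDUFB11 had 119, 136 and 114 CPM in control and 190, 203 and 203 CPM in ZQ libraries, a change of 0.69 ± 0.16 (adjusted p = 0.00736). The direction of these changes depended on the GC and length offsets, under which NDUFB7 was called lower at −0.76 and NDUFB11 stood at −0.014. NDUFB4 had 125, 111 and 132 CPM in control and 235, 198 and 179 CPM in ZQ libraries, a change of 0.73 ± 0.18 (adjusted p = 0.00815). NDUFB3 had 101, 95.4 and 108 CPM in control and 209, 151 and 160 CPM in ZQ libraries, a change of 0.77 ± 0.19 (adjusted p = 0.00881). With the offsets NDUFB4 and NDUFB3 stayed higher, at 1.17 and 1.54. The exons of NDUFB11 overlap RBM10 (2049 control and 292 ZQ counts) and those of NDUFB3 overlap HYCC2 (1154 and 36).

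The genes nearest the threshold were NDUFV3 and NDUFA2 inside it and NDUFA6 outside it. NDUFV3, an accessory subunit of the NADH-oxidising arm, had 53.5, 54.2 and 54 CPM in control and 123, 69.9 and 82.9 CPM in ZQ libraries (0.77 ± 0.26, adjusted p = 0.0371). NDUFA2 had 21.7, 22.4 and 26.1 CPM in control and 48.9, 40.2 and 44.2 CPM in ZQ libraries (0.92 ± 0.30, adjusted p = 0.034). NDUFA6 had 108, 52.9 and 122 CPM in control and 198, 131 and 170 CPM in ZQ libraries (0.82 ± 0.30, adjusted p = 0.0538). For NDUFA6 the groups did not overlap, but control 2 lay well under the other control libraries. These calls turned on the settings: NDUFV3 and NDUFA2 were each called in 8 of the 18 alternatives, and both calls were lost under the replicate block and without any single control library. NDUFA6 was called higher in 9 of the 18, among them DESeq2, the GC and length offsets and the replicate block. The 5 complex I genes that rose and are not described singly were NDUFA3, NDUFAB1 (the mitochondrial acyl carrier protein), NDUFB2, NDUFC1 and NDUFS6, with changes of 0.56 to 1.17. NDUFA3 had the largest rise of the set, from 24.4 ± 3.17 to 55.1 ± 16.9 CPM (SD, n = 3), and stood at −0.05, not called, under the GC and length offsets. NDUFS6 stood at −0.38 there, also not called.

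Complex II genes did not pass the test in either direction, and their median log2 change was −0.11. Complex II is succinate dehydrogenase, which also works in the TCA cycle. SDHD, a haem-bearing membrane anchor, had 193, 136 and 203 CPM in control and 121, 103 and 161 CPM in ZQ libraries (−0.47 ± 0.23, adjusted p = 0.126). SDHC, the other anchor, had 112, 117 and 106 CPM in control and 95.1, 112 and 86.2 CPM in ZQ libraries (−0.19 ± 0.19, adjusted p = 0.452). In both anchors ZQ and control values overlapped.

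SDHB, the iron-sulfur subunit, had 232, 177 and 260 CPM in control and 262, 263 and 282 CPM in ZQ libraries (0.27 ± 0.17, adjusted p = 0.235), the groups meeting at their edges without overlap. It was called higher in 5 of the 18 alternatives. Among them were the GC and length offsets (0.59, adjusted p = 0.012) and upper-quartile scaling (0.71, adjusted p = 0.00836). SDHD was called lower in 3 alternatives and SDHC in 1, both by library totals (−0.86 and −0.60). SDHA, the flavin-bearing catalytic subunit, had 21.3, 20 and 20.5 CPM in control and 29.9, 16.8 and 13.8 CPM in ZQ libraries (−0.03 ± 0.41, adjusted p = 0.96). The ZQ libraries of SDHA lay on both sides of the control libraries, which were close together. SDHA is uncertain because its pseudogenes held 46.3% of the joint counts in control and 41.0% in ZQ libraries. The exons of SDHD overlap TIMM8B, with 4332 control and 881 ZQ counts.

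Of the 9 complex III genes the small subunits UQCRH, UQCRQ and UQCRB rose and the core protein UQCRC1 fell, and the median log2 change was 0.44. UQCRH, the hinge protein beside cytochrome c1 (chr1:46303631-46316776), had 145, 133 and 151 CPM in control and 309, 288 and 280 CPM in ZQ libraries. The groups were far apart, and the change of 1.03 ± 0.15 was 2.04-fold (adjusted p = 0.000523). It was called in all 18 alternatives, between 0.63 and 1.47. UQCRQ, a small membrane subunit, had 260, 215 and 309 CPM in control and 547, 441 and 592 CPM in ZQ libraries, a change of 1.01 ± 0.17 (adjusted p = 0.00132). UQCRB, known as a coenzyme Q-binding protein, had 128, 108 and 144 CPM in control and 181, 235 and 237 CPM in ZQ libraries, a change of 0.79 ± 0.19 (adjusted p = 0.00774). Under the GC and length offsets UQCRB stood at 1.60 and UQCRQ, no longer called, at 0.15.

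UQCRC1, a large matrix-side core protein, had 618, 617 and 585 CPM in control and 415, 526 and 413 CPM in ZQ libraries. ZQ 2 lay closest to the control libraries, and the change was −0.43 ± 0.14 (adjusted p = 0.0326). Its call was lost without any single control library (−0.26, −0.31 and −0.29 without control 1, 2 and 3) and with DESeq2 (−0.35), the stricter filter (−0.19), thinned controls (−0.23) and upper-quartile scaling, where it stood at 0.022. The subunits that carry the electrons were not called: UQCRFS1, the Rieske iron-sulfur protein, at −0.22 ± 0.16 and CYC1, cytochrome c1, at 0.28 ± 0.13. UQCR10, just outside the threshold, had 88.5, 58.8 and 100 CPM in control and 133, 107 and 150 CPM in ZQ libraries (0.66 ± 0.24, adjusted p = 0.0556). UQCRC2, the partner of UQCRC1, stood at −0.03 ± 0.21, and UQCR11 at 0.44 ± 0.29. With the GC and length offsets UQCRFS1 was called higher at 0.49 (adjusted p = 0.031) and UQCRC2 at 0.70 (adjusted p = 0.0272). CYC1 and UQCR11 were called lower there, at −0.73 and −0.93. Of the 9 genes 4 were then called higher and 3 lower, where 17.9% of all genes were called higher and 14.2% lower.

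Of the 10 complex IV genes 9 rose and 0 fell, and their median log2 change was 0.83. The nuclear COX subunits surround the catalytic core made by the mitochondrial genome. COX6B1, on the intermembrane-space face where cytochrome c docks (chr19:35648223-35658861), had 151, 138 and 165 CPM in control and 279, 309 and 296 CPM in ZQ libraries, a change of 0.96 ± 0.15 and 1.95-fold (adjusted p = 0.000759). COX5B, a zinc-binding matrix subunit, had 227, 210 and 258 CPM in control and 382, 451 and 432 CPM in ZQ libraries, a change of 0.86 ± 0.15 (adjusted p = 0.00117). COX5A, its matrix neighbour, had 137, 130 and 135 CPM in control and 221, 248 and 276 CPM in ZQ libraries, a change of 0.89 ± 0.16 (adjusted p = 0.00151). In each of these genes the lowest ZQ library stood well above the highest control library.

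The small membrane subunits COX7A2 and COX7C also rose. COX7A2 had 270, 218 and 290 CPM in control and 468, 431 and 458 CPM in ZQ libraries, a change of 0.80 ± 0.15 (adjusted p = 0.00196). COX7C had 145, 140 and 143 CPM in control and 268, 224 and 270 CPM in ZQ libraries, a change of 0.83 ± 0.15 (adjusted p = 0.00198). The other 4 that rose were COX4I1, which binds ATP as a regulator, COX6C, COX7B and COX8A, by 0.68 to 1.09. Under the GC and length offsets COX4I1 stood at 0.36 and COX8A at 0.13, neither called, and 7 of the 10 genes were called higher. Without the offsets the 9 rises lay between 1.6-fold and 2.13-fold. COX6A1 was the exception, with 82.9, 61.3 and 103 CPM in control and 102, 97.2 and 122 CPM in ZQ libraries (0.37 ± 0.24, adjusted p = 0.239), where the groups overlapped. COX5A, COX5B, COX6B1 and COX7A2 were called in all 18 alternatives.

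Summed over each complex, the levels separated complex II from the rest. Complex IV summed to 1559 ± 141 CPM in control and 2751 ± 65.9 CPM with ZQ (SD, n = 3), a ratio of 1.77. Complex I summed to 3473 ± 343 and 4796 ± 272 CPM (ratio 1.38), and complex III to 1875 ± 72.3 and 2344 ± 69 CPM (ratio 1.25), in each case with no overlap between groups. Complex II summed to 533 ± 72.8 CPM in control and 515 ± 25.2 CPM with ZQ (ratio 0.967), and the groups overlapped. These ratios depend on the scaling, and as shares of all counts, mitochondrial transcripts included, they were 1.34 for complex IV, 1.05 for I, 0.946 for III and 0.734 for II.

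Shares within the 59 genes do not depend on the scaling. Complex IV took 20.8% to 21.1% of these counts in control and 25.6% to 26.9% with ZQ. Complex II took 6.66% to 7.40% in control and 4.81% to 5.16% with ZQ. Complex III took 24.2% to 26.6% in control and 21.4% to 23.4% with ZQ, and complex I overlapped, with 46.0% to 47.4% and 44.9% to 48.1%. In every control library complex III took a larger share than complex IV, and in every ZQ library complex IV took the larger share. Per kilobase of transcript, the median level was 250 CPM in control and 434 CPM with ZQ for complex IV, and 120 and 169 CPM for complex I.

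**Figure D3:**
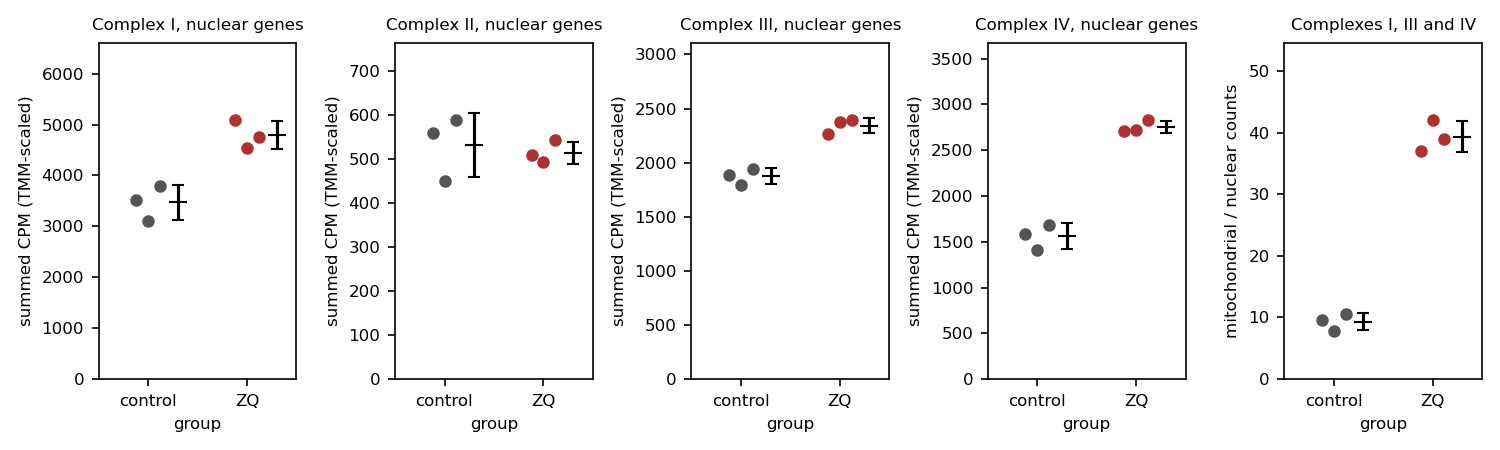
Summed TMM-scaled CPM of the nuclear genes of each complex, and the ratio of mitochondrially encoded to nuclear-encoded counts for complexes I, III and IV, in each library (points) with group mean and SD (bars, n = 3). Complexes I, III and IV are higher in all 3 ZQ libraries, complex II overlaps, and the ratio rises from 9.32 to 39.3.

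The mitochondrially encoded partners were also higher with ZQ. Of 11 such subunit genes of complexes I, III and IV, 10 rose, with a median log2 change of 2.76; MT-CYB, the complex III member, was not called at 0.41 (adjusted p = 0.0989), and MT-ND2 changed most, at 4.36 ± 0.09. Counts of mitochondrially encoded subunits per nuclear-encoded count were 7.77 to 10.5 in control and 36.9 to 42.0 in ZQ libraries. By complex, the mean ratio went from 7.71 to 55.3 in complex I and from 13.5 to 37.2 in complex IV, each with no overlap. In complex III it was 8.84 ± 2.35 in control and 9.44 ± 0.528 with ZQ (SD, n = 3), and the groups overlapped.

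The calls differed with transcript length. Among genes with transcripts up to 1 kb, 43 were tested, 25 rose and 0 fell. Above 1 kb, 14 were tested, 1 rose (NDUFV3) and 3 fell (NDUFS1, NDUFV1 and UQCRC1). The 1 kb limit was chosen after the values were seen. Lengths are those of 1 annotated transcript per gene, which may not be the one expressed. NDUFS8, NDUFS3 and NDUFA9 were taken as 353, 583 and 642 bases. Among all tested protein-coding genes, 30.5% of 1376 with transcripts up to 1 kb rose and 10.6% fell, against 15.9% and 22.1% of 10138 longer genes. Across the 57 genes Spearman's rho between log2 change and length was −0.52, and with GC content 0.13. Across 11514 protein-coding genes it was −0.10 with length and 0.49 with GC content. Genes are not independent replicates and share their libraries, so these are descriptions. The median transcript was 684 bases for the 57 and 2366 bases for all tested protein-coding genes.

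**Figure D4:**
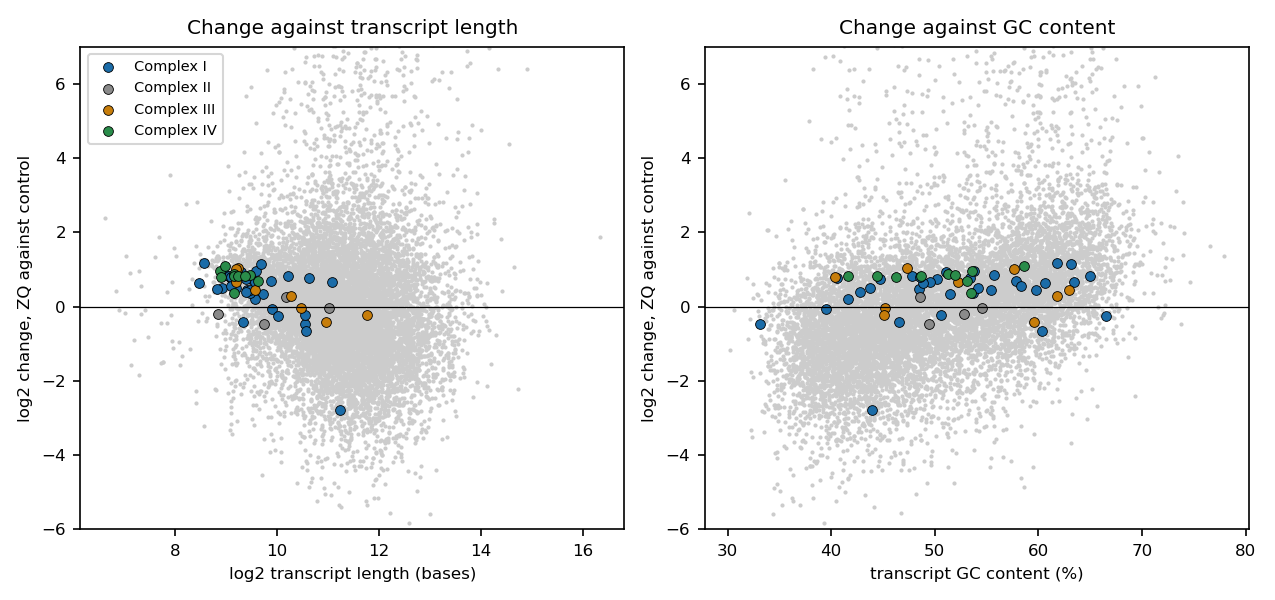
Fitted log2 change, ZQ against control, against transcript length (log2 bases) and GC content for tested protein-coding genes (grey) and the genes of complexes I to IV (coloured); 272 grey genes lie outside the drawn vertical range. The coloured genes fall with length, NDUFS1 being lowest, and show little slope with GC content, while the grey genes rise with it.

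With offsets that remove smooth trends in GC content and length from each library, 25 of the 57 genes were called higher and 8 lower, and 16 of the 26 rises were kept. Over the 11514 genes of that fit 17.9% were called higher and 14.2% lower, so the lower calls among the 57 were near the share of all genes. NDUFS1, NDUFV1 and UQCRC1 stayed lower, at −1.85, −1.44 and −1.05, and UQCRH, UQCRB, COX7A2 and COX7C stayed higher, at 1.20, 1.60, 1.10 and 1.53. NDUFB7, NDUFB10, NDUFS7, UQCR11 and CYC1, with a GC content of 59.7% to 66.5%, were called lower with the offsets, NDUFB7 after a rise without them. NDUFA5, the gene of the set with the lowest GC content (33.2%), moved from −0.46 to 1.19. Among the 57, rho with GC content became −0.78 under the offsets, against 0.13 without them, and rho with length −0.17. The median log2 change was 0.36 with the offsets, against 0.09 over all genes in that fit. By complex, the offsets gave 13 higher and 5 lower genes in complex I, 1 and 0 in II, 4 and 3 in III, and 7 and 0 in IV. The medians for I to IV were 0.21, −0.25, 0.36 and 0.65, against 0.59, −0.11, 0.44 and 0.83 without the offsets.

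**Figure D5:**
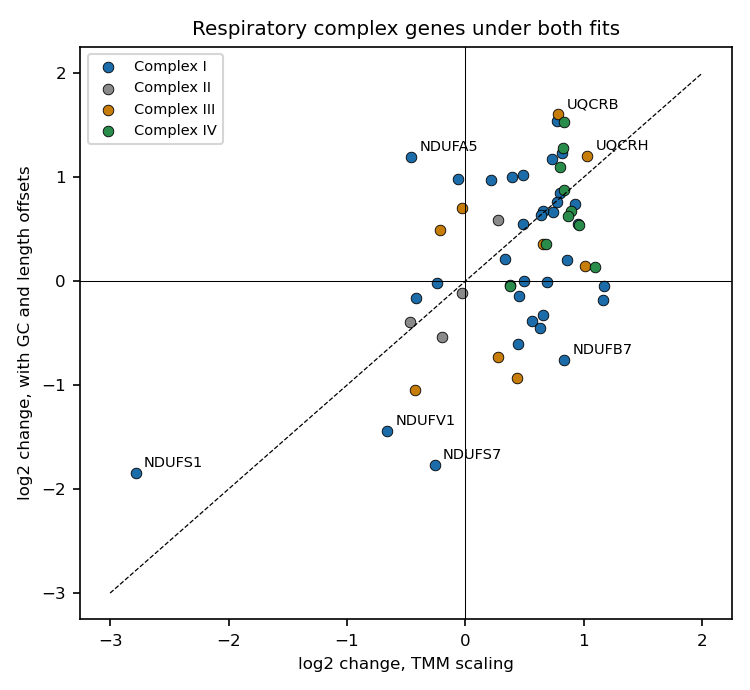
Log2 change of each of the 57 genes with TMM scaling (horizontal) against that with GC and length offsets (vertical), coloured by complex; the dashed line marks equal values. NDUFS1, NDUFV1 and UQCRH keep their sign, NDUFB7 crosses from 0.83 to −0.76, and NDUFA5 crosses from −0.46 to 1.19.

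The number of calls moved with the scaling. Such scalings move every gene by about the same amount, so the median change of the 57 minus that of all tested genes was 0.60 with TMM, DESeq2 size factors, upper-quartile scaling and library totals by construction. It was 0.27 with the GC and length offsets, 0.92 with the stricter count filter and −1.43 without a filter. Counts of genes higher and lower were 39 and 1 with upper-quartile scaling, where all genes had a median of 0.48, and 10 and 7 with library totals, where it was −0.37. By complex, library totals gave 2 higher and 3 lower genes in complex I, 0 and 2 in II, 2 and 2 in III, and 6 and 0 in IV. Upper-quartile scaling gave 22 and 1 in complex I, 1 and 0 in II, 6 and 0 in III, and 10 and 0 in IV. Over all genes the split of higher and lower calls moved to 3767 and 1611 with upper-quartile scaling and to 1752 and 3580 with library totals. Without ZQ 1, 16 genes rose. NDUFA1, NDUFS1, UQCRH, COX5A, COX5B, COX6B1 and COX7A2 were called in the same direction in all 18 alternatives. Of the 27 genes whose exons overlap no other gene, 13 rose and 1 fell.

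Over all genes tested, 19.3% were called higher and 19.0% lower, and 17.9% and 14.2% in the fit with GC and length offsets. Of 18 nuclear subunit genes of ATP synthase, which follows the chain, 12 rose and 2 fell, with a median log2 change of 0.64. By library totals 3 were called higher and 3 lower, and the GC and length correction gave 8 higher and 2 lower. ATP5F1E, the epsilon subunit, rose by 1.19 ± 0.16, and ATP5MK by 1.03 ± 0.16. ATP5F1A, the alpha subunit of the catalytic head, had 764, 656 and 741 CPM in control and 373, 253 and 412 CPM in ZQ libraries, and changed by −1.06 ± 0.18. ATP5F1B, the beta subunit, also fell, at −0.77 ± 0.16. With that correction ATP5F1B was still called lower at −0.54, ATP5F1A stood at −0.45 (adjusted p = 0.0683), and ATP5F1D, called higher without them at 0.69, was called lower at −1.09 (adjusted p = 0.00143). Genes for factors that assemble the complexes were also counted. Of 18 complex I assembly genes 3 rose (NDUFAF8, NDUFAF4 and NDUFAF2) and 0 fell, with a median of 0.05. Those rises were near the share of all genes. Of 32 tested assembly and maturation genes for complexes II to IV, 10 rose and 2 fell, with a median of 0.67. The complex III factor UQCC2 and the complex IV factor COA4 rose by 1.22 ± 0.19 and 1.29 ± 0.20. With the offsets NDUFAF8 at 0.07 and UQCC2 at 0.47 were no longer called, and the counts higher and lower were 5 and 1 for complex I factors and 5 and 2 for the others. LRPPRC, which stabilises mitochondrial messenger RNA, had 215, 170 and 185 CPM in control and 47.8, 43.6 and 33.7 CPM in ZQ libraries, a change of −2.19 ± 0.21 (adjusted p = 6.18e-05). The other that fell was UQCC1, the partner of UQCC2, at −1.13 (adjusted p = 0.0037).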

How the data were processed

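Per the labels' protocols, libraries were prepared from DNase-treated TRIzol RNA with the NEBNext Ultra kit. The deposited table of the authors holds 60892 rows of raw, unscaled counts. The submitters' processing notes list GRCh38 as build and Cufflinks 2.1.1 as a tool without its role. The aligner, counter and strand setting were stated in none of the sources used here, so overlapping genes share reads that cannot be separated. The 228 rows without an Ensembl ID stayed in the fit.

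Counts were analysed in R 4.3.3 with edgeR 4.0.16: filterByExpr (minimum count 10, total 15), TMM, quasi-likelihood F-test, Benjamini-Hochberg over 12994 genes. Alternatives used DESeq2 1.42.0, limma 3.58.1, mgcv 1.9.3 offsets, other scalings and filters, a replicate block, thinning and each library left out. The fit was tested on simulated data. Transcript length and GC content came from GENCODE on GRCh38 (basic coding transcript of median length), promoters from RefSeq. Values are given in every library for the genes of each complex with the smallest adjusted p (8, 4, 4 and 5), those called against the majority and those nearest the threshold; other lists name at most 3. The members, lists and rules were chosen with earlier results of these data known.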

Additional observations from a re-analysis of the deposited data

How the results depend on the processing

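Counts of all genes called were 4978, 11603 without a count filter, 3090 with the replicate block and offsets, and 2794 to 5407 when a library was left out (fewest without control 1; 3040 without control 3). Of the respiratory genes, 29 were called, with 17 by library totals, 13 without the filter and 19 to 28 with a library left out. Those higher numbered 26, with 10 by library totals, 8 without the filter and 16 (without ZQ 1) to 27 with a library left out. Those lower numbered 3, with 7 by library totals, 5 without the filter, 8 with offsets, 6 with block and offsets, 1 with upper-quartile scaling, the stricter filter or thinned controls, and 1 (without any control library) to 4 with a library left out. Without the filter, 7957 of all 38214 genes were called higher and 3646 lower. Higher calls were then no more frequent among the 59 respiratory genes than among all genes. Without ZQ 1, 2456 of all 14666 genes were called higher and 2719 lower. The median log2 change of 0.63 was 1.08 with upper-quartile scaling, 0.23 by library totals, 0.32 without the filter (all genes 1.75), 0.87 with the stricter filter, 0.36 with offsets, 0.37 with block and offsets, and 0.41 to 0.80 with a library left out. With controls thinned to the ZQ depth, 37 of 56 respiratory genes were higher and 1 lower (median 0.79), against 1700 and 1835 of all 9880 genes. Without mitochondrial-genome genes 26 of 57 were higher and 3 lower (median 0.64).

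Ratios of summed counts for all genes and complexes I, II, III and IV were 1.06, 1.05, 0.734, 0.946 and 1.34 as shares of all counts. As shares of nuclear counts they were 1.60, 1.58, 1.11, 1.43 and 2.02, and with pseudogenes added 1.60, 1.58, 1.10, 1.43 and 2.02.

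Signs reversed for NDUFB7 (−0.76 with offsets, −0.75 with block and offsets), NDUFB11 (−0.014 and −0.015), NDUFS8 (−0.45 and −0.44), NDUFS6 (−0.38 with offsets), NDUFA3 (−0.05 with offsets), SDHB (−0.13 by library totals, −0.041 without the filter), SDHC (0.25 upper-quartile, 0.038 stricter filter) and UQCRC1 (0.022 upper-quartile). SDHA reversed with DESeq2 (0.048), its size factors (0.049), upper-quartile scaling (0.42), the stricter filter (0.20) and thinning (0.15), and ranged from −0.52 to 0.15 with a library left out. No other called respiratory gene changed sign in the 18 alternatives. Genes not called and not described singly also reversed and are not all listed. NDUFA5 was called lower by library totals (−0.86, adjusted p = 0.00618) and higher with offsets (1.19, adjusted p = 0.000623). So was UQCRFS1 (−0.62, adjusted p = 0.0118, and 0.49, adjusted p = 0.031). The cause was not tested.

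Same-numbered libraries had correlations of 0.00944, 0.0371 and 0.0316, under 0.1, so the numbers were not taken as pairs, though each library correlated best with its own number. The replicate block alone gave 4405 genes, 27 respiratory genes higher and 3 lower. At the ZQ depth 2 of the 59 genes, NDUFA7 and NDUFV2, lay at or under the density on olfactory receptor genes (99th percentile 18.7 counts per kilobase), and the others lay at 19.4 to 7581.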

Other observations

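Coenzyme Q synthesis and cytochrome c genes, which link the complexes, had a median log2 change of −0.15. Of 14 tested, 0 rose and 2 fell, where 19.3% of all genes were called higher and 19.0% lower: COQ10B at −1.44 ± 0.34 (adjusted p = 0.00789) and HCCS, which attaches haem to cytochromes c, at −0.62 ± 0.21 (adjusted p = 0.036). CYCS, cytochrome c itself, had 337, 292 and 346 CPM in control and 449, 368 and 434 CPM in ZQ libraries (0.36 ± 0.14, adjusted p = 0.071), without overlap. With the GC and length offsets 2 were called higher and 0 lower, where 17.9% of all genes in that fit were called higher and 14.2% lower. With 14 genes, these counts do not show a change of direction. COQ10B then stood at −0.17 (adjusted p = 0.722), HCCS at −0.44 (adjusted p = 0.108), and CYCS was called higher at 0.99 (adjusted p = 0.000323).

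Of 14 regulators of respiratory or mitochondrial genes, 1 rose and 3 fell. Over all genes tested 19.3% were called higher and 19.0% lower, so the lower calls were near the share of all genes. POLRMT, the mitochondrial RNA polymerase, had 3.05, 4.37 and 3.21 CPM in control and 23.4, 12.5 and 27.1 CPM in ZQ libraries (2.56 ± 0.51, adjusted p = 0.0029). The 3 that fell were MTERF1 (−2.19 ± 0.47, adjusted p = 0.00453), GABPA (−1.23 ± 0.30, adjusted p = 0.00837) and TFAM, which packages the mitochondrial genome (−0.83 ± 0.21, adjusted p = 0.00962). None of these 4 calls was kept under the GC and length offsets, where POLRMT stood at 1.22 (adjusted p = 0.0894), MTERF1 at −0.74 (adjusted p = 0.226), GABPA at 0.13 and TFAM at 0.08. NRF1 had 17.8 to 23.2 CPM in control and 5.27 to 21.2 CPM in ZQ libraries and was not called (adjusted p = 0.249), and PPARGC1A was near 0 in both groups, at a mean of 0.662 and 2.22 CPM.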
